A study of Mus musculus with 6 samples.

Results

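Cycling cells of the liver were taken here as cells in which at least 3 of 8 genes were detected, that is, had a value above 0. The 8 genes that the members were chosen by were Mki67, Top2a, Birc5, Cdk1, Ccnb2, Ube2c, Cenpf and Nusap1. By this rule 736 of 11610 cells, or 6.34%, were cycling. The cells came from single-cell RNA sequencing in droplets of 3 wild-type and 3 SIRT7-/- livers, with 3270 and 8340 cells. The mice were 5 to 6 months of age, and hepatocytes and nonparenchymal cells isolated by collagenase perfusion were mixed for each library. SIRT7-/- mice lack the deacetylase SIRT7, and the study followed spontaneous fatty liver disease in them on a chow diet. Sex, strain and the deleted part of the gene were not given in the sources used here. The question put to the cycling cells was in which mice and lineages they occurred, and whether the genotypes differed.

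In the mitotic cell cycle, DNA is replicated in S phase, chromosomes are condensed and attached to the spindle in G2 and M phase, and cyclins with their kinases drive the passage from one phase to the next. Most S phase genes are driven by E2F factors, whereas most G2/M genes are driven later by the MuvB complex with B-MYB and FOXM1. Hepatocytes of an adult liver are mostly quiescent and re-enter the cycle after injury, while Kupffer cells, the resident macrophages, renew themselves by local division and lymphocytes divide when they are activated.

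The 8 genes of the rule have distinct roles in division. Mki67 coats mitotic chromosomes, Top2a untangles DNA strands, Birc5 encodes survivin of the chromosomal passenger complex, Cdk1 is the mitotic kinase, Ccnb2 is one of its cyclins, Ube2c is the ubiquitin-conjugating enzyme of the anaphase-promoting complex, Cenpf binds kinetochores and Nusap1 bundles spindle microtubules. The sequences before their transcription starts are shown because 6 of the 8 carried both elements known from G2/M promoters. These are the cell cycle genes homology region (CHR), searched as TTTGAA or TTCGAA on both strands, and the CCAAT box, searched as CCAAT on both strands. The 150 bases before the start from RefSeq (GRCm38.p6) are printed 5′ to 3′ on the strand of the gene, in lower case with CHR, CCAAT and the E2F motif GGCGGGA (also searched on both strands) in capitals. They lie at chr11:99024190-99024339 (minus strand) for Top2a, chr10:69352913-69353062 (minus) for Cdk1, chr2:164769779-164769928 (plus) for Ube2c and chr7:135716380-135716529 (minus) for Mki67. Nusap1, at chr2:119618148-119618297 (plus), is printed as one of the 2 genes without either element.
Top2a: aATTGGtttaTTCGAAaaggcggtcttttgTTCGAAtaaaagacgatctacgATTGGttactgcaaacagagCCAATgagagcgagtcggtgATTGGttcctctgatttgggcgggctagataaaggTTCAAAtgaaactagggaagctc
Cdk1: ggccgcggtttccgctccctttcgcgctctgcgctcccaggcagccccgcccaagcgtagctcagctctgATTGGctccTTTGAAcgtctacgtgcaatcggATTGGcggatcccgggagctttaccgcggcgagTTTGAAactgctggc
Ube2c: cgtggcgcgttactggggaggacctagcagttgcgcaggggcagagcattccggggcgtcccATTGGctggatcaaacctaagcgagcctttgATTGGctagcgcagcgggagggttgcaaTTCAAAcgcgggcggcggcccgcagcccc
Mki67: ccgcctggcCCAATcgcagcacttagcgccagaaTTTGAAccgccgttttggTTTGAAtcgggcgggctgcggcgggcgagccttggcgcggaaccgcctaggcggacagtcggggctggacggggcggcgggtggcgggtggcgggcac
Nusap1: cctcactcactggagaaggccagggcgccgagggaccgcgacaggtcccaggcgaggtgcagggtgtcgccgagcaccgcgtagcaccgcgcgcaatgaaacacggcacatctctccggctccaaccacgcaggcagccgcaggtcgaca

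Over the 300 bases from 250 before to 50 after the start, Top2a held 4 CHR and 6 CCAAT matches, Cdk1 2 and 3, Ube2c 1 and 6, and Mki67 2 and 3. The only CHR of Cenpf lay after the start. For the shares below, a gene counted if any of its RefSeq promoters held a match. A CHR was present in 6 of the 8 rule genes (75%) and in 30 of 39 other G2/M genes with a RefSeq promoter (76.9%). It was present in 6 of 31 S phase genes (19.4%) and in 21.7% of all 27025 genes. CCAAT was common in both phases, with 76.9% of the other G2/M and 71% of the S phase genes against 41.1% of all genes. CHR and CCAAT both occurred in 61.5% of the other G2/M genes, in 12.9% of the S phase genes and in 9.65% of all. The E2F motif was in 12 of 39 other G2/M genes (30.8%), 12 of 31 S phase genes (38.7%) and 12.7% of all. These matches describe letters in the promoters and are no measurement of binding.

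Each library was 1 mouse, with 2511947 to 11069411 molecules counted by unique molecular identifier (UMI). Values are given as counts per 10000 UMIs of the cell (CP10K), averaged over the cells of a mouse. Of the barcodes, 13 occurred in 2 libraries, which concerned 26 cells, 1 of them cycling. SIRT7-/- mouse 1 stood apart, since 63 of its 245 cycling cells (25.7%) carried at least 3 of the 7 granule genes of neutrophil precursors (Elane, Mpo, Prtn3, Ctsg, Ngp, Camp and Ltf), against 0 to 3 cycling cells in each of the other 5 mice. The deleted gene was low everywhere at this depth, and Sirt7 in cycling cells was at 0.293, 0.941 and 0.588 CP10K in wild-type mice 1 to 3 and at 0.119, 0.0538 and 0.341 CP10K in SIRT7-/- mice 1 to 3. The genotypes overlapped in the cycling cells. In the other cells they did not, with 0.722, 0.502 and 0.541 CP10K in wild-type and 0.0991, 0.0861 and 0.124 CP10K in SIRT7-/- mice.

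The label held against genes that the rule did not use, although every difference between cycling and other cells comes from the same contrast as the rule and is a description without a test. Among the 46 other G2/M genes, 44 were higher in cycling than in other cells in all 6 mice, as were 38 of 43 S phase genes, beside 859 of the 3313 genes that averaged 0.5 CP10K or more in cycling cells. The median difference was 1.97 for the other G2/M genes, 1.15 for the S phase genes and 0.15 for the 3313 genes, in log2 units of mean CP10K plus 0.2. This scale understates the change of low genes.

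Top2a was detected in 84.2% of the cycling and 1.41% of the other cells. Its mean in cycling cells was 5.73, 6.96 and 6.11 CP10K in wild-type and 6.78, 7.48 and 5.41 CP10K in SIRT7-/- mice, in groups of 11 to 319 cells. Ube2c ran from 2.87 CP10K in wild-type mouse 1 to 10.7 CP10K in wild-type mouse 2. Mki67 stayed between 3.18 and 4.54 CP10K in the 6 mice, and Cdk1 between 2.04 and 4.02 CP10K. In hepatocytes that were not cycling, each of the 8 genes had a UMI in 0.192% to 0.959% of cells at a median depth of 1480 UMIs per cell. In cycling cells this was 41.6% to 84.2%, at 3809.5 UMIs. The rule asked for at least 3 of these genes in cycling cells and fewer in all others. It thus set much of this contrast, which is no test of background.

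Cells just inside and just outside the threshold were alike in S phase genes and differed in G2/M genes. The 125 cells with 3 of the 8 genes had 31.3 CP10K summed over the 43 S phase genes and 81.9 CP10K over the 46 other G2/M genes. The 130 cells with 2 of the 8 had 32.3 and 55 CP10K, and the 10196 cells with none had 4.57 and 10.2 CP10K. All 8 genes were detected in 65 cells, which had 20.9 CP10K of S phase and 140.3 CP10K of G2/M genes. Among the members, the cells with all 8 genes had the least S phase message and the most G2/M message.

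A second call by S phase genes, with at least 3 of Mcm5, Mcm6, Pcna, Tyms, Rrm2, Gins2, Uhrf1 and Hells, found 431 cells, or 3.71% of all. Of these, 250 were also members by the G2/M rule and 181 were not. They were 34% of the 736 members, from 16.3% in SIRT7-/- mouse 1 to 81.8% in wild-type mouse 1. Most members thus passed the G2/M rule alone.

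**Figure D1:**
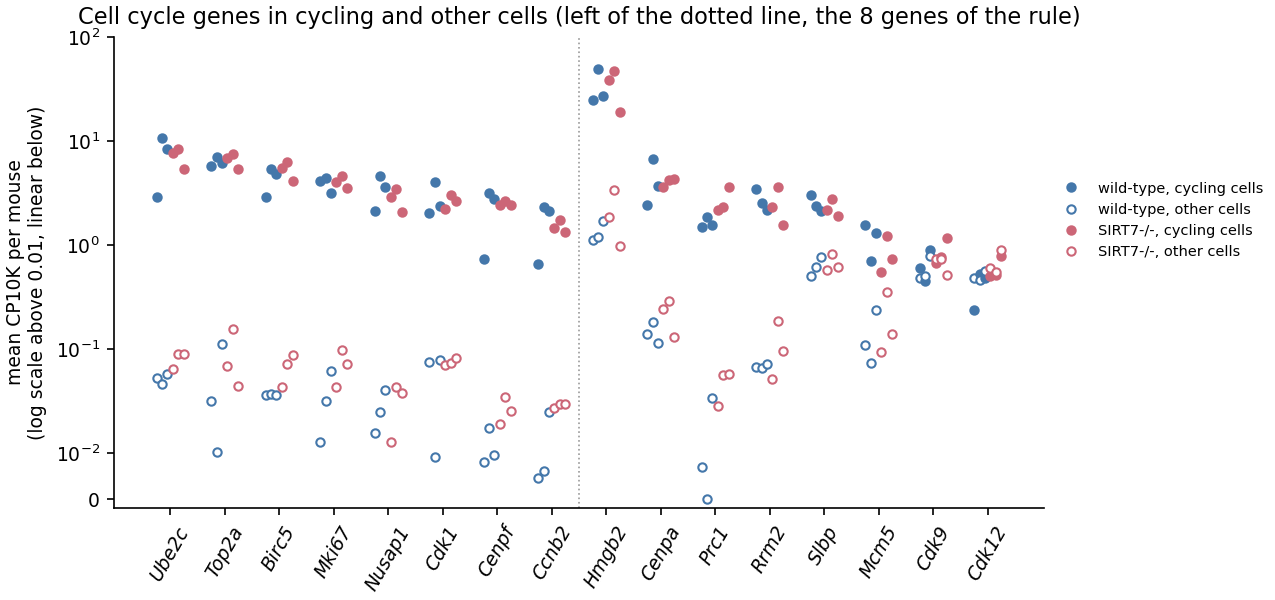
Mean level in CP10K of 16 cell cycle genes in the cycling (filled) and other cells (open) of each mouse, wild-type in blue and SIRT7-/- in red, on an axis that is logarithmic above 0.01 and linear below. The rule genes and Hmgb2, Cenpa, Prc1, Rrm2, Slbp and Mcm5 were higher in the cycling cells of every mouse, whereas Cdk9 and Cdk12 lay at similar levels in both.

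Genes of replication were present in cycling cells at low levels. All 17 licensing genes, which load the MCM helicase or fire origins, were higher in cycling cells in 6 of 6 mice, with a median log2 difference of 0.98. Gmnn, which blocks relicensing, led with a mean of 1.27 CP10K in cycling and 0.246 CP10K in other cells, and Mcm5 of the helicase had 1.01 and 0.167 CP10K. Of 21 fork and nucleotide genes 19 were higher in every mouse, led by Rrm2 of ribonucleotide reductase with 2.6 and 0.0893 CP10K and by Dut, which removes dUTP, with 2.42 and 0.41 CP10K.

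Genes of chromosome structure were the most abundant. All 16 genes of the chromatin and tubulin list were higher in cycling cells of every mouse, with a median log2 difference of 2.46. Hmgb2, a DNA-bending protein, was at 24.7, 48.9 and 27.1 CP10K in the cycling cells of wild-type mice and at 38.3, 47.1 and 18.9 CP10K in those of SIRT7-/- mice, compared with a mean of 1.7 CP10K in other cells. Stmn1, which destabilizes microtubules, had 13.9 and 0.391 CP10K, and the histone variant H2afz 25.6 and 4.28 CP10K. All 8 condensin genes were higher in every mouse too, with Smc4 at 3.37 and 0.324 CP10K.

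The spindle and its checkpoint followed the same pattern. All 16 motor and midzone genes were higher in cycling cells in 6 of 6 mice (median log2 difference 1.98), among them Prc1, which bundles the midzone, with 2.16 and 0.0304 CP10K, and Tpx2, an activator of Aurora A, with 1.84 and 0.0407 CP10K. The 10 checkpoint and passenger genes were also higher in every mouse (2.22), with Cdca8 at 2.19 and 0.0398 CP10K. Of 17 kinetochore genes 16 were higher (1.68), with the centromeric histone Cenpa at 4.13 and 0.182 CP10K. In the list of the anaphase-promoting complex and its partners 7 of 10 were higher in every mouse (1.06). Its mitotic substrate Pttg1, securin, had 2.69 and 0.138 CP10K, while the structural subunit Anapc13 had 1.06 and 1.34 CP10K.

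Cyclins were divided by phase. Among 15 cyclins, kinases and partners 11 were higher in cycling cells of every mouse. Ccna2, the cyclin of S and G2, had 2.57 and 0.0242 CP10K and Ccnb1, a mitotic cyclin, 1.42 and 0.0234 CP10K. Of the D cyclins of G1, Ccnd1 was at 0.916 and 1.07 CP10K and Ccnd2 at 1.37 and 1.7 CP10K, while Ccnd3, at 1.42 and 0.992 CP10K, was higher in cycling cells in 5 of 6 mice. Of 8 inhibitors 3 were higher in every mouse, Cdkn2d (1.43 and 0.202 CP10K), Cdkn2c (0.947 and 0.116 CP10K) and Cdkn3 (0.663 and 0.0169 CP10K), whereas Cdkn1a, the p53 target p21, had 0.696 and 0.528 CP10K. In the list of E2F and MuvB factors 10 of 13 were higher in every mouse, including Foxm1 with 0.531 and 0.00847 CP10K.

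Of 10 kinase and anaphase genes with cell cycle names that the study had shown for hepatocytes (Cdk8, Cdk9, Cdk11b, Cdk12, Cdk13, Cdk17, Cdk18, Cdk20, Cdc23 and Cdc26), 0 were higher in cycling cells in all 6 mice, with a median log2 difference of 0.03. Several encode kinases of transcription. Cdk9, the kinase of elongation, had 0.752 and 0.621 CP10K in cycling and other cells, Cdk12 had 0.503 and 0.589 CP10K, and Cdk11b 0.651 and 0.549 CP10K. The study compared these genes between genotypes within hepatocytes, and it also reported increased proliferation in SIRT7-/- livers by Ki67 staining. Here they were compared between cycling and other cells of all lineages, and 18 of the 736 cycling cells were hepatocytes. The values thus do not address the comparison of the study. The study chose this list on these samples, so it is not independent evidence of a direction between genotypes.

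Cycling cells were found in every mouse, at shares that ranged widely. They were 11 of 1243 cells in wild-type mouse 1 (0.885%, exact 95% binomial interval 0.443 to 1.58%), 20 of 933 in mouse 2 (2.14%, 1.31 to 3.29%) and 103 of 1094 in mouse 3 (9.41%, 7.75 to 11.3%). In SIRT7-/- mice they were 245 of 5609 (4.37%, 3.85 to 4.94%), 319 of 2179 (14.6%, 13.2 to 16.2%) and 38 of 552 (6.88%, 4.92 to 9.33%). These intervals cover counting error only. The genotypes overlapped, since wild-type mouse 3 lay above 2 of the 3 SIRT7-/- mice.

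The mean share was 4.15% ± 4.6 (SD, n = 3) in wild-type and 8.63% ± 5.35 (SD, n = 3) in SIRT7-/- mice, and the difference of 4.48 percentage points did not exceed the spread between mice (two-sided exact permutation test, p = 0.4). With 3 mice against 3 this exact test cannot go below p = 0.1, and it measures only the spread between these mice. The share depends on the mix of cells in each library. At a common mix of lineages it was 3.86%, 5.86% and 8.53% in wild-type and 4.52%, 10.9% and 10.7% in SIRT7-/- mice, a difference of 2.61 points (exact permutation p = 0.3).

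It also depends on depth. Cycling cells had a median of 3809.5 UMIs against 1808 in other cells, with ratios of 1.81 to 4.77 over the mice. With each cell thinned to 1000 UMIs the shares became 0.246%, 1.23% and 4.94% in wild-type and 2.32%, 8.21% and 2.5% in SIRT7-/- mice, with the mice in the same order as before. Thinning left out 458 wild-type and 1293 SIRT7-/- cells with fewer UMIs. The difference at 1000 UMIs was 2.2 points (exact permutation p = 0.5).

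**Figure D2:**
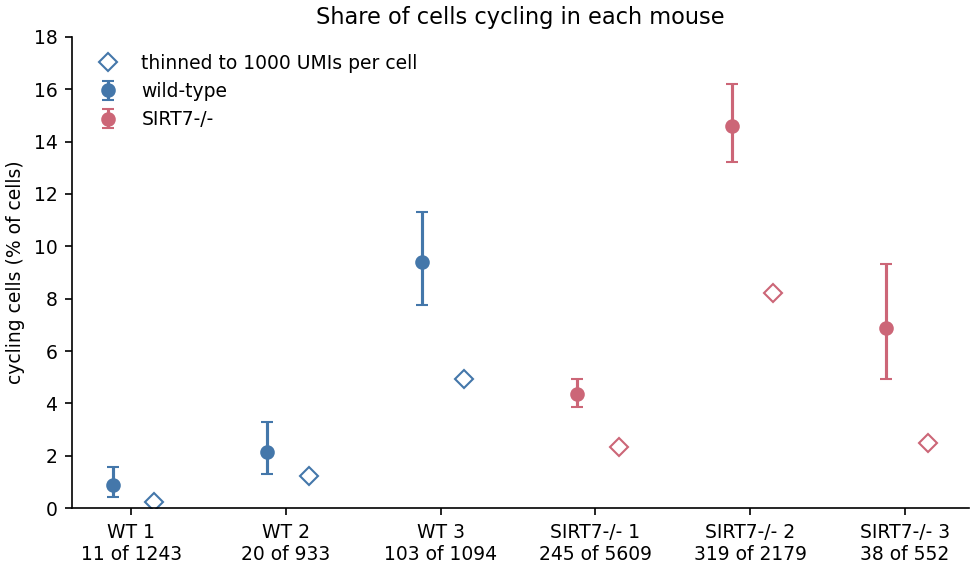
Share of cells cycling in each mouse, in percent of its cells, as counted (filled, bars give the exact 95% binomial interval) and after thinning each cell to 1000 UMIs (open diamonds, mean of 20 draws). Wild-type shares (blue) ran from 0.885 to 9.41% and SIRT7-/- shares (red) from 4.37 to 14.6%, and the genotypes overlapped in both.

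A lineage was given to 547 of the 736 cycling cells, by Clec4f or C1qa for macrophages, Cd3e or Ncr1 for lymphoid cells, Flt3 or Siglech for dendritic cells, Mzb1 for plasma cells, and Alb at 30 CP10K or more without Ptprc for hepatocytes. They divided into 197 macrophage, 209 lymphoid, 88 dendritic, 35 plasma and 18 hepatocyte cells. More than 1 lineage marker was detected in 15.2% of cycling and 9.55% of other cells, and such a cell was given the lineage whose wider marker list was highest. At least 3 markers of the wider list of their own lineage were detected in 90.4% of cycling macrophage, 98.1% of lymphoid, 53.4% of dendritic, 91.4% of plasma and 100% of hepatocyte cells. The dendritic share was thus the lowest. The lists had 6 to 13 genes and held the assigning genes too, so these shares do not test the names equally. At least 3 hepatocyte genes were also detected in 79.7% of cycling macrophages.

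The lineage makeup of the cycling cells overlapped between the genotypes in each lineage. Macrophages were 45.5%, 30% and 34% of the cycling cells in wild-type and 30.2%, 21.3% and 23.7% in SIRT7-/- mice, a difference of -11.4 points (exact permutation p = 0.2, 0.75 after Benjamini-Hochberg adjustment over 5 lineages). Lymphoid cells were 27.3%, 40% and 9.71% in wild-type and 14.3%, 46.7% and 10.5% in SIRT7-/- mice (p = 1, exact permutation). Hepatocytes were at most 9.09% in 5 mice and 31.6% in SIRT7-/- mouse 3, where they were 12 of 38 cycling cells. None of the 5 lineages reached the smallest p of the exact test.

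**Figure D3:**
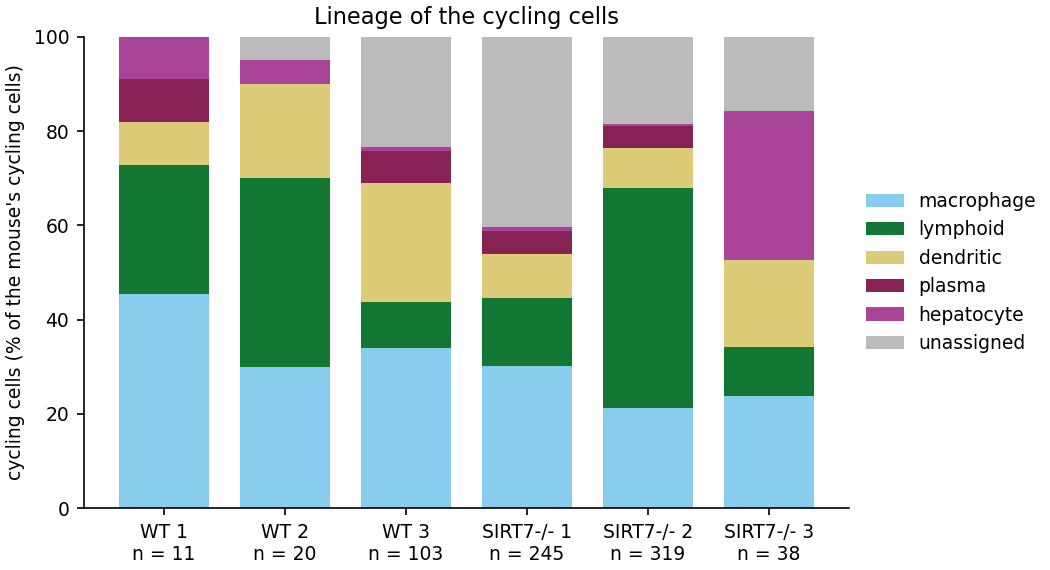
Lineage of the cycling cells in percent of each mouse's cycling cells, with their number under each bar. Lymphoid cells made up the most in SIRT7-/- mouse 2 (46.7%) and hepatocytes in SIRT7-/- mouse 3 (31.6%), and cells with no lineage marker in SIRT7-/- mouse 1 (40.4%).

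Within the lymphoid lineage the genotypes did not overlap. Cycling cells were 3 of 184 lymphoid cells (1.63%), 8 of 130 (6.15%) and 10 of 166 (6.02%) in wild-type mice, and 35 of 413 (8.47%), 149 of 469 (31.8%) and 4 of 30 (13.3%) in SIRT7-/- mice. All 3 SIRT7-/- values lay above all wild-type values, by a mean of 13.3 percentage points (4.6% ± 2.57 against 17.9% ± 12.3, SD, n = 3 each). The exact permutation p was 0.1, the smallest that 3 against 3 allows, and 0.417 adjusted over 5 lineages. SIRT7-/- mouse 2 decided much of the size, and without it the difference was 6.3 points. After thinning to 1000 UMIs the groups overlapped, at 0.707%, 3.4% and 4.51% in wild-type and 7.43%, 21.6% and 3.33% in SIRT7-/- mice (exact permutation p = 0.3).

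Most cycling lymphoid cells carried a T cell marker. Cd3e of the T cell receptor complex, without Ncr1, was detected in 164 of the 209, and Ncr1 of natural killer and innate lymphoid cells without Cd3e in 30. SIRT7-/- mouse 2 held 123 of the 164, which were 36.6% of its 336 cells with Cd3e alone. The share cycling with Cd3e alone and with Ncr1 alone was 1.73% and 0%, 6.19% and 6.67%, and 6.34% and 0% in wild-type mice, and 11.2% and 6.39%, 36.6% and 12.3%, and 11.8% and 15.4% in SIRT7-/- mice. The Cd3e share was thus the higher one in 4 of 6 mice. Trac, the constant part of the alpha chain, did not set cycling cells apart, at 0.996 to 3.06 CP10K in cycling and 0.887 to 3.79 CP10K in other lymphoid cells of the 6 mice.

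Among the genes lower than in the other lymphoid cells of the same mouse, Bcl2, a blocker of apoptosis, was at 1.04, 0.827 and 2.23 CP10K in cycling cells of wild-type and 0.494, 0.785 and 0.606 CP10K in those of SIRT7-/- mice, beside 4.01 to 7.1 CP10K in other lymphoid cells. Every mouse showed the lower value in cycling cells. The effector gene Gzmb was lower as well, with a median log2 difference of -2.03 over mice with at least 5 cycling cells. The effector gene Gzma was mixed. It was higher in cycling cells of wild-type mouse 2 (13.1 against 7.87 CP10K) and SIRT7-/- mouse 1 (13.5 against 11.3 CP10K), and lower in those of the others. Cxcr6, the receptor that holds lymphocytes in the liver sinusoid, was at 1.29 to 3.21 CP10K in cycling and 3.88 to 11.1 CP10K in other lymphoid cells. Hist1h2ap, a replication histone, had the largest difference (median log2 difference 5.39), followed by the rule genes Ube2c (5.06) and Top2a (4.97) and by Stmn1 (4.79).

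In the macrophage lineage the order of the genotypes was the other way round. Cycling cells were 5 of 53 (9.43%), 6 of 49 (12.2%) and 35 of 263 (13.3%) in wild-type and 74 of 2820 (2.62%), 68 of 644 (10.6%) and 9 of 89 (10.1%) in SIRT7-/- mice. SIRT7-/- mouse 1, with by far the most macrophages, lay below all others and the other values overlapped. The difference was -3.9 percentage points (11.7% ± 2 against 7.77% ± 4.46, SD, n = 3 each; exact permutation p = 0.3, adjusted 0.417), and -1.33 points without SIRT7-/- mouse 1.

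Several genes of Kupffer cells were lower in cycling macrophages of every mouse, and others were not. Clec4f and C1qa, which assigned the lineage, were among the lower ones. Clec4f, a lectin found on Kupffer cells, was at 22.7, 13.4 and 14.4 CP10K in wild-type and 9.53, 14.3 and 15.7 CP10K in SIRT7-/- cycling macrophages, against 23.6 to 35.2 CP10K in the other macrophages, and it was lower in cycling cells in each mouse. C1qa of complement was at 20.1 to 30.8 CP10K and 32.4 to 49.4 CP10K. Of genes the lineage call did not use, Adgre1, which encodes F4/80, and Csf1r, the receptor of the macrophage growth factor, were lower in all 6 mice too, at 2.62 to 6.81 against 7.85 to 9.83 CP10K and at 5.34 to 7.6 against 9.33 to 11.5 CP10K. The direction was mixed for Vsig4, a complement receptor, with 13.1 against 8.62 CP10K in wild-type mouse 2 and lower values in the cycling cells of the others. It was mixed as well for the scavenger receptor Marco, higher in cycling cells of wild-type mouse 2 (11.7 against 4.89 CP10K) and SIRT7-/- mouse 2 (2.29 against 2.06 CP10K). Cd163, a scavenger receptor of haemoglobin, had a median log2 difference of -1.47, and the lipoprotein gene Apoc1 one of -1.45. By Timd4, a marker of long-resident Kupffer cells, the mice went both ways. The share cycling with and without a Timd4 UMI was 13.2% and 0%, 14.8% and 9.09%, and 12.9% and 13.7% in wild-type mice, and 2.4% and 2.93%, 11.5% and 8.81%, and 8.93% and 12.1% in SIRT7-/- mice.

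In SIRT7-/- mouse 1, 23 of 74 cycling cells of the macrophage lineage also had at least 3 granule genes, and the summed 10 genes of neutrophils and their precursors reached 603 CP10K there against at most 4.33 CP10K in cycling macrophages of the other mice. The 8 erythroid genes summed to 77.2 CP10K there and to at most 1.19 CP10K in the other mice, and all 5 markers of mast cells and basophils were at 0. Of the 197 cycling macrophages of all mice, 1 had 3 or more erythroid genes, so the erythroid mean can rest on very few cells. Without the granule gene cells the genotype difference in the share of macrophages cycling was -4.15 points (exact permutation p = 0.3), close to that with them. The part of the erythroid genes was not tested. Hist1h2ap had the largest median log2 difference from other macrophages (4.32), before the rule genes Birc5 (4.18) and Ube2c (4.14) and before Stmn1 (3.94).

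**Figure D4:**
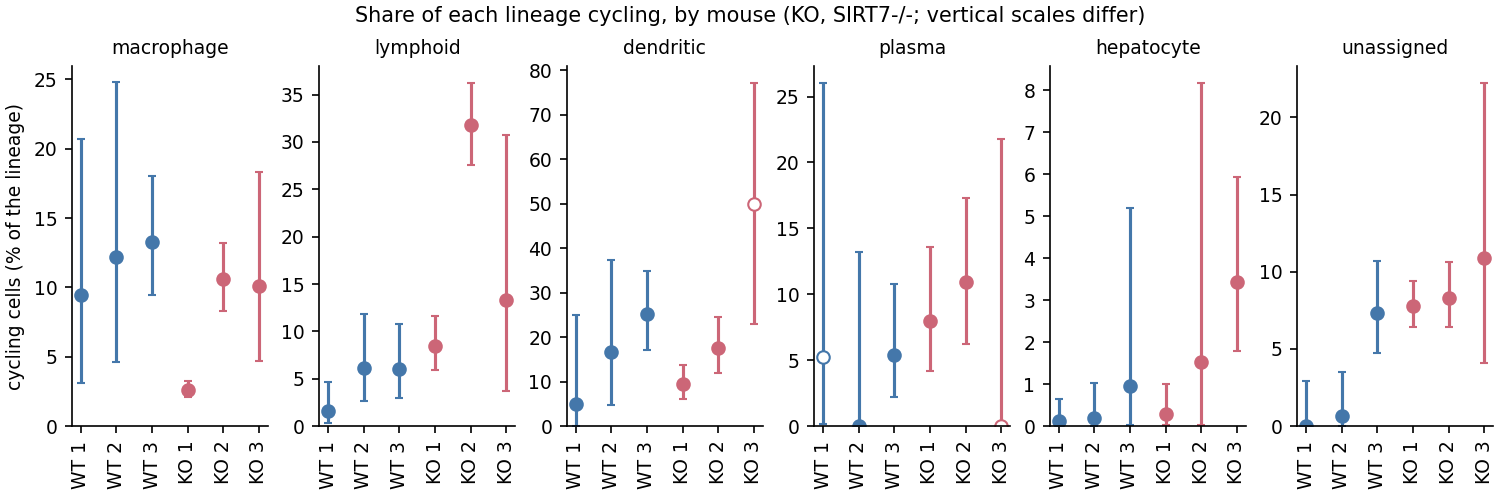
Share of each lineage cycling in each mouse, in percent of its cells of that lineage, with exact 95% binomial intervals. Open symbols mark mice with fewer than 20 cells of the lineage, and the vertical scales differ. Lymphoid shares of SIRT7-/- mice (red) lay at 8.47 to 31.8%, above the wild-type ones (blue, 1.63 to 6.15%), and macrophage shares overlapped.

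Dendritic cells had a high share, with 88 of 559 cycling (15.7%). By mouse they were 1 of 20 (5%), 4 of 24 (16.7%) and 26 of 103 (25.2%) in wild-type and 23 of 244 (9.43%), 27 of 154 (17.5%) and 7 of 14 (50%) in SIRT7-/- mice. The last, with fewer than 20 cells, stayed out of the test, and the other 5 mice overlapped (difference -2.16 points, exact permutation p = 0.9, adjusted 0.9). The 1 cycling cell of wild-type mouse 1 had at least 3 granule genes, so its dendritic name is doubtful. It had H2-Ab1 at 0.581 and Cst3 at 5.23 CP10K, against 61.3 and 55.3 CP10K in the other dendritic cells of that mouse.

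Cells with Xcr1 or Clec9a, markers of conventional type 1 dendritic cells, without Siglech and Ccr9 cycled at 31.8% (42 of 132). Cells with Siglech or Ccr9, markers of plasmacytoid cells, without Xcr1 and Clec9a did so at 6.22% (15 of 241). In the 5 mice with cycling cells in either group the first share was the higher one, at 44.4%, 28.6%, 30.3%, 31.4% and 71.4% against 0%, 12.5%, 4.32%, 9.23% and 0%. In SIRT7-/- mouse 1 the neutrophil and precursor genes summed to 304.8 CP10K in cycling dendritic cells, against at most 8.71 CP10K in the other mice. Without granule gene cells the genotype difference in the dendritic share was -8.12 points with 2 mice in each group (exact permutation p = 0.667), in place of -2.16 points. Against other dendritic cells the plasmacytoid genes Klk1 (median log2 difference -3.88), Cox6a2 (-2.44), Siglech (-2.17), Spib (-2.11) and Bst2 (-2.00) were lower in cycling cells of every mouse compared. The rule gene Ube2c (4.76), Hist1h2ap (4.61) and Hmgb2 (4.17) were among the higher genes.

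Plasma cells gave 35 cycling cells of 478, or 7.32%. They were 0 of 26 in wild-type mouse 2, 7 of 130 (5.38%) in mouse 3, 12 of 150 (8%) in SIRT7-/- mouse 1 and 15 of 138 (10.9%) in mouse 2, while wild-type mouse 1 (1 of 19) and SIRT7-/- mouse 3 (0 of 15) had fewer than 20 plasma cells and stayed out of the test. The value of 0 of 26 has an exact upper limit of 13.2%. The difference of 6.74 points reached the smallest p that 2 mice against 2 allow (exact permutation p = 0.333, adjusted 0.417). Mzb1, a chaperone of antibody assembly, was at 48.4, 20.1 and 39.4 CP10K in the cycling plasma cells of these 3 mice and at 25.7, 24.5 and 31.6 CP10K in the others. Ighg2b (median log2 difference -7.22) and Ighm (-1.85) were lower and Pclaf, a PCNA-binding factor, had the largest difference upward (5.16). Antibody genes did not all fall, since Ighg1 was higher in the cycling plasma cells of these 3 mice. It was at 233.9, 51.6 and 139.9 CP10K there and at 126.7, 37.9 and 16.2 CP10K in the others. In SIRT7-/- mouse 1, 4 of the 12 cycling plasma cells carried 3 or more granule genes.

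Cycling hepatocytes were rare, 18 of 2625 (0.686%). They were 1 of 844 (0.118%), 1 of 546 (0.183%) and 1 of 105 (0.952%) in wild-type and 2 of 715 (0.28%), 1 of 66 (1.52%) and 12 of 349 (3.44%, exact interval 1.79 to 5.93%) in SIRT7-/- mice. The genotypes overlapped, with 0.418% ± 0.464 against 1.74% ± 1.59 (SD, n = 3 each; exact permutation p = 0.2, adjusted 0.417). Without SIRT7-/- mouse 3 the difference fell from 1.33 to 0.479 points.

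The 12 cells of SIRT7-/- mouse 3 were well inside the threshold. They had a median of 6 of the 8 rule genes, and 0 of the 12 had 3 or more macrophage or lymphoid markers. Their summed 10 hepatocyte genes had a median of 256.8 CP10K against 335.7 CP10K in the other hepatocytes of that mouse, with 4348 and 3157 UMIs per cell. They also leaned furthest to G2/M, at 8.23 CP10K of S phase and 139.6 CP10K of other G2/M genes, a log2 ratio of -4.09. Top2a was at 7.18, Mki67 at 5.54 and Cenpf at 4.35 CP10K. Pck1 of gluconeogenesis was at 44.9 and 33.6 CP10K in cycling and other hepatocytes, and Cyp2e1 at 2.93 and 4.81 CP10K.

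The other 6 cycling hepatocytes, 1 or 2 in each of 5 mice, had medians of 3 to 4 rule genes, next to the threshold. Over all 18 cells Alb lay between 30 and 96.8 CP10K, and 4 were within 10 CP10K of the threshold of 30. In cells outside the lineage the 95th percentile of Alb was 40.2 CP10K, above the threshold, and 0 of the 18 reached 100 CP10K. The 10 hepatocyte genes summed to at least 92.4 CP10K in each of the 18, against a median of 62.6 CP10K in cells outside the lineage. Afp, a gene of fetal liver, and the pericentral gene Cyp1a2 had 0 UMIs in all 18, beside 0.153% and 17.9% of other hepatocytes with a UMI.

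No lineage marker was found in 189 cycling cells, 99 of them from SIRT7-/- mouse 1. At least 3 genes of the wider lymphoid list were present in 63, at least 3 of the neutrophil and precursor list in 41 and at least 3 monocyte markers in 32. Granule genes marked 32 of the 99 in SIRT7-/- mouse 1. There Camp was at 136.6, Ngp at 68.9, Elane at 4.44 and Mpo at 3 CP10K, and Camp was also at 86.7 CP10K in wild-type mouse 3 and 53.8 CP10K in SIRT7-/- mouse 3. In 141 of the 189 at least 3 hepatocyte genes had a UMI, and this was so in 79.7% of cycling macrophages too. Endothelial markers, the other large class of liver nonparenchymal cells, reached 3 in 6 of the 189.

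The balance of S phase to other G2/M genes, as the log2 ratio of their summed CP10K, was -1.07, -2.25 and -1.96 in wild-type and -2.15, -1.86 and -2.19 in SIRT7-/- mice. Only wild-type mouse 1, with 11 cycling cells, stood above the others. The difference of -0.30 was within the spread between mice (-1.76 ± 0.613 against -2.07 ± 0.181, SD, n = 3 each; exact permutation p = 0.7). In SIRT7-/- mouse 2, which had the most cycling cells, lymphoid cells had 38.5 CP10K of S phase and 150.5 CP10K of G2/M genes, macrophages 29.9 and 71.1 CP10K, dendritic cells 22.2 and 99.1 CP10K and plasma cells 19.4 and 62.8 CP10K.

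Gene by gene, the cycling cells of the genotypes were compared by limma on log2 of the mean CP10K of each mouse plus 0.2. Of 3313 genes 0 passed an adjusted p of 0.05 (0% called), 125 had an unadjusted p under 0.05, of which 20 were higher in SIRT7-/- mice, and limma voom on summed UMIs called 0 too, with 169 unadjusted. None of the cell cycle lists held a called gene. Of the 8 rule genes 6 had positive differences (median 0.05, range -0.24 to 0.36, description only), beside a median of -0.05 over all genes. Of 26 S phase genes tested 4 were positive (median -0.13), and of 41 other G2/M genes 28 were (median 0.13). On simulated data this comparison recovered 22% of 2-fold, 66% of 4-fold and 94% of 8-fold changes. The simulation drew counts at the summed depth of each mouse, not means over single cells, and planted 50 changed genes at each fold. Recovery in the real data can therefore be lower, and real differences could go unseen.

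The nearest to the threshold was Gatm, which makes the creatine precursor guanidinoacetate, at 8.11, 7.68 and 5.19 CP10K in wild-type and 1.74, 2.51 and 1.96 CP10K in SIRT7-/- cycling cells. The groups did not overlap, yet its adjusted p was 0.160 (log2 difference -1.65, SE 0.25, limma). Without the cells of more than 1 lineage it was the 1 gene called, at an adjusted p of 0.0464. Siglece, an inhibitory lectin of myeloid cells, followed with 2.12, 1.67 and 2.07 against 0.55, 0.68 and 0.533 CP10K (limma adjusted p 0.201). Within cycling macrophages the log2 difference of Gatm was -1.63 (SE 0.32, limma adjusted p 0.0647), as large as over all cycling cells. Its adjusted p there was 0.0139 without cells of more than 1 lineage and 0.0303 without granule gene cells. It was 0.362 with limma voom, 0.702 without a variance trend and robust fit and 0.168 with the mean of logged values. Without wild-type mouse 1, 2 or 3 the limma adjusted p was 0.064, 0.192 and 0.145. Without SIRT7-/- mouse 1, 2 or 3 it was 0.0171, 0.000262 and 0.32, so the call depended on the setting. In the cycling cells outside the macrophage lineage the difference was -0.34 (SE 0.33, limma adjusted p 0.999). That fit had 2 wild-type against 3 SIRT7-/- mice, since wild-type mouse 1 had too few such cells. The summed 10 neutrophil and precursor genes reached 0.13 to 134.8 CP10K in wild-type and 9.68 to 615.9 CP10K in SIRT7-/- cycling cells. With the granule gene cells left out limma again called 0 genes, with 123 unadjusted, and Gatm was at -1.70 (SE 0.25, adjusted p 0.155).

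Among the cell cycle genes Pcna, the sliding clamp of replication, had the largest unadjusted difference, at 1.37, 1.05 and 0.451 CP10K in wild-type and 0.315, 0.405 and 0.334 CP10K in SIRT7-/- mice (log2 difference -0.98, SE 0.36, limma adjusted p 1). Prc1 was at 1.49, 1.86 and 1.55 CP10K and 2.16, 2.29 and 3.61 CP10K (0.63, SE 0.26, adjusted p 1). Neither pair of groups overlapped and neither passed the test. Of the 10 kinase and anaphase genes the study had shown, 5 could be tested, 4 were positive and 0 were called (median 0.34). Pcyt2, an enzyme of phosphatidylethanolamine synthesis, was at 1.45, 1.08 and 0.495 against 0.0453, 0.0794 and 0.0321 CP10K (-2.18, SE 0.70, adjusted p 1). In RefSeq (GRCm38.p6) Pcyt2 lies at chr11:120610062-120617947 and Sirt7 at chr11:120618371-120625014.

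Cycling macrophages were the only lineage with all 6 mice in a comparison, at a minimum of 5 cycling cells, and wild-type mice 1 and 2 entered with 5 and 6 cells. Of 3421 genes limma called 1 (0.0292% called), with 262 at an unadjusted p under 0.05. The gene was C4b, complement component 4, at 0.284, 0.812 and 0.388 CP10K in wild-type and 2.19, 2.93 and 4.23 CP10K in SIRT7-/- mice. All SIRT7-/- values lay above all wild-type values (log2 difference 2.28, SE 0.41, adjusted p 0.03). The call was lost without wild-type mouse 3 (adjusted p 0.145), without SIRT7-/- mouse 3 (0.32), with limma voom (0.242), with the mean of logged values (0.163) and without a variance trend and robust fit (0.268). C4b has a near-identical neighbour, C4a, which was not analysed here, so its counts are uncertain. With the granule gene cells left out its adjusted p was 0.00883.

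Other macrophages held more C4b, at 3.05, 4.2 and 2.04 CP10K in wild-type and 4.15, 4.93 and 4.86 CP10K in SIRT7-/- mice, and there the genotypes overlapped. Whether the genotype difference of cycling macrophages exceeded that of other macrophages was tested as an interaction. It gave 1.68 for C4b (SE 0.51, limma adjusted p 0.872) and -0.60 for Gatm (SE 0.33, limma adjusted p 0.872). Over 3871 genes the interaction called 0 (0% called), with 187 unadjusted, and limma voom was not run for it. Vcam1, an adhesion molecule of Kupffer cells, was at 1.17, 0.489 and 0.443 against 4.19, 3.83 and 1.84 CP10K without passing the threshold (log2 difference 1.97, SE 0.41, adjusted p 0.0772). In the other macrophages Vcam1 was at 2.9, 1.55 and 1.32 CP10K in wild-type and 7.55, 5.14 and 5.15 CP10K in SIRT7-/- mice. The groups did not overlap there either, so this difference was not particular to cycling cells. Cathepsin D, Ctsd, was at 8.06, 5.52 and 7.5 against 12.8, 17.2 and 18.7 CP10K (1.18, SE 0.26, adjusted p 0.0926).

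**Figure D5:**
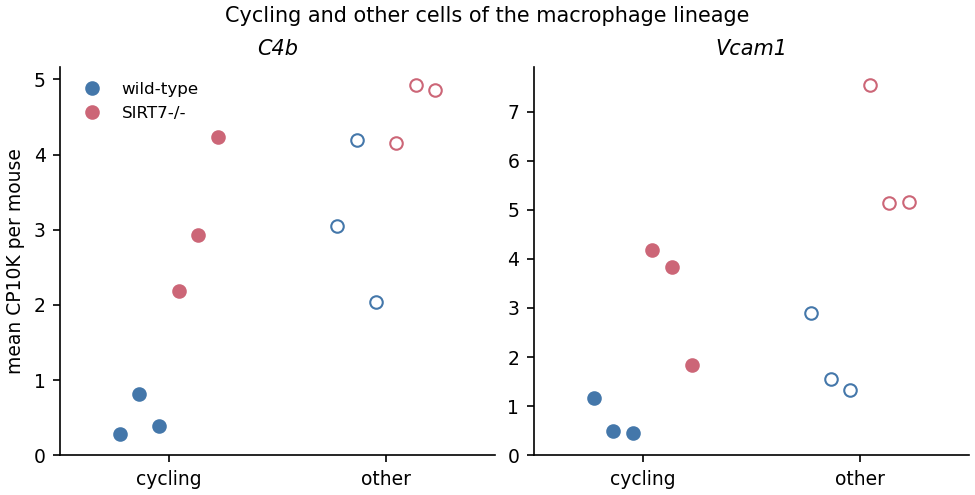
C4b and Vcam1 in cycling (filled) and other (open) cells of the macrophage lineage, as the mean CP10K of each mouse. In cycling cells C4b was at 0.284 to 0.812 in wild-type (blue) and 2.19 to 4.23 in SIRT7-/- mice (red), and in other macrophages at 2.04 to 4.2 and 4.15 to 4.93. Vcam1 did not overlap between the genotypes in either, and in other macrophages it was at 1.32 to 2.9 and 5.14 to 7.55.

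Cell cycle genes of cycling macrophages gave 0 calls in every list. All 8 rule genes had a negative difference (median -0.30, range -1.18 to -0.03, description only, since these genes chose the cells), while 7 of 38 other G2/M genes tested were positive (median -0.40), and among the latter 7 had an unadjusted p under 0.05, 6 of them lower. The median over all genes was -0.05. With the granule gene cells of SIRT7-/- mouse 1 left out, 4 of 3445 genes were called, C4b among them, and 254 had an unadjusted p under 0.05.

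Cycling lymphoid cells could be compared in wild-type mice 2 and 3 against SIRT7-/- mice 1 and 2. Of 3191 genes limma called 0 (0% called), with 185 unadjusted, whereas limma voom called 50, of which 49 were lower in SIRT7-/- mice. The interaction with other lymphoid cells called 0 of 3823 genes (0% called), with 213 unadjusted, and voom was not run for it. Closest to the threshold was the neutrophil gene S100a9, listed at 0 in both wild-type mice and at 4.43 and 1.93 CP10K in SIRT7-/- mice (adjusted p 0.0595). Hepatocyte genes in the cycling lymphoid cells summed to 95.2 and 48.1 CP10K in the wild-type and 59.2 and 15.8 CP10K in the SIRT7-/- mice, and their part in these differences was not tested. Dendritic, plasma and hepatocyte cycling cells were too few in wild-type mice for a comparison by gene.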

How the data were processed

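The values were deposited by the authors as natural log values: UMI counts of each cell scaled to 10000, plus 1, then logged. The authors used Cell Ranger 6.0.0 with mm10 and Scanpy, and per their methods removed cells with fewer than 500 genes or over 5% mitochondrial counts and genes in fewer than 3 cells. No doublet removal is stated and no doublet caller was run. Whole UMIs were recovered from all 12961041 values (tolerance 0.02, largest deviation 0.00381).

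Mouse and genotype came from barcode endings. The members and lists were chosen with earlier results of these data known. Means per mouse were compared with limma 3.58.1 (trend and robust, statmod 1.5.0, R 4.3.3) on log2(mean CP10K + 0.2), for genes averaging at least 0.5 CP10K, with Benjamini-Hochberg adjustment at 0.05. Shares were compared by exact permutation tests, two-sided. Lineages could not be fitted at 10 cycling cells per mouse, so the planned minimum of 5 was used. Genes were named by rule: Sirt7, the 8 rule genes, the 2 to 4 genes of each list highest in cycling cells, genes past the threshold, and the 15 with the largest median log2 ratio within a lineage in each direction. The others with values (among them Stmn1, Prc1, the D cyclins, Cdkn1a, Cdkn3, Foxm1, Anapc13, Cdk12, Pcna, Pcyt2 and the genes nearest to a threshold, such as Gatm, Siglece, Vcam1, Ctsd and S100a9) were chosen after their values were seen. The fits were tested on simulated data. Alternatives covered pseudocount, filters, voom, thinning and left-out mice. Python 3.11.15 with numpy 2.4.6, scipy 1.17.1 and pandas 2.3.3 was used.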

Additional observations from a re-analysis of the deposited data

Results flagged for a closer look

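The share of lymphoid cells cycling minus the share of macrophages cycling had opposite signs in the genotypes. It was -7.8, -6.09 and -7.28 percentage points in wild-type and 5.85, 21.2 and 3.22 points in SIRT7-/- mice, a difference of 17.2 points. The exact permutation p was 0.1, the smallest that 3 mice against 3 allow, and 0.333 after adjustment over 10 pairs of lineages. The signs were the same after thinning to 1000 UMIs (-2.05, -4.05 and -1.67 against 6.58, 18.4 and 0.216 points). In SIRT7-/- mouse 3, 4 of 30 lymphoid cells were cycling (13.3%, exact interval 3.76 to 30.7%). Of its macrophages 9 of 89 were (10.1%, 4.73 to 18.3%). These intervals overlap, so the sign of this mouse is uncertain. After thinning its sign rested on a mean of 1 cycling cell among 30 lymphoid cells.

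The share of plasma cells cycling minus that of macrophages was -12.2 and -7.92 points in wild-type mice 2 and 3 and 5.38 and 0.311 points in SIRT7-/- mice 1 and 2, a difference of 12.9 points over 2 mice in each group (exact permutation p = 0.333, adjusted 0.476). After thinning to 1000 UMIs the value of SIRT7-/- mouse 2 was -1.19 points, so the signs no longer differed. SIRT7-/- mouse 3, left out for having fewer than 20 plasma cells, had 0 of 15 plasma cells and 10.1% of macrophages cycling, which is the sign of the wild-type mice.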

How the results depend on the processing

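Of 225 alternatives 131 concerned shares and the S to G2/M balance, of which 120 kept the direction and 10 reversed it. Leaving out each mouse in turn, the genotype difference in percentage points ran from 1.48 to 7.12 for the share of cells cycling, from -5.29 to -1.33 within macrophages, 6.3 to 17.9 within lymphoid cells, -7.48 to 2.65 within dendritic cells (2.65 without wild-type mouse 3, 1.9 without SIRT7-/- mouse 1), 4.05 to 9.43 within plasma cells and 0.479 to 2.06 within hepatocytes. For the lineage makeup it ran from -14.6 to -6.92 for macrophages, -13.3 to 5.35 for lymphoid cells (5.35 without wild-type mouse 2, 2.96 without SIRT7-/- mouse 1 and 4.84 without SIRT7-/- mouse 3), -10.5 to -2.45 for dendritic cells, -4.74 to -0.198 for plasma cells and -4.46 to 11.2 for hepatocytes, negative without SIRT7-/- mouse 3. The dendritic difference of -2.16 also became -14.2 without cells of more than 1 lineage and -16.1 at 2 or more UMIs of a lineage marker (1 wild-type against 2 SIRT7-/- mice with 20 dendritic cells or more), and -8.12 without granule gene cells (2 against 2). The balance ran from -0.548 to 0.0402, the latter without wild-type mouse 1, and was 0.0207 at 4 or more rule genes. The lymphoid makeup was 0.449 without cells of more than 1 lineage. At an Alb threshold of 100 CP10K 0 cycling hepatocytes were left.

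Among all cycling cells 1 gene was called without cells of more than 1 lineage. In macrophages the call count of 1 became 3 at a pseudocount of 1, 5 at a minimum mean of 0.1 CP10K, 0 at 2 CP10K, 0 with the mean of logged values, 0 without trend and robust, 2 without cells of more than 1 lineage, 6 at 4 or more rule genes, 4 without granule gene cells and 2 with limma voom. It was 0 to 9 without single mice, 0 without wild-type mouse 3 or SIRT7-/- mouse 3 and 9 without SIRT7-/- mouse 1. In lymphoid cells the count of 0 became 4 at 0.1 CP10K, 50 with voom, and 0 to 70 without single mice, 70 without wild-type mouse 2. The lymphoid interaction gave 0 to 3 calls, 3 without wild-type mouse 3. A lone mouse left in a group was assumed to vary like the other group. The causes were not tested.

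The sample titles number the mice of each genotype and do not say whether the same number marks a pair. Deviations of same-numbered mice correlated at -0.17, 0.04 and -0.24 in cycling cells, and those of other pairs at -0.10 to 0.30. With 3 mice per genotype these values cannot decide whether the mice were paired. With the replicate block the dendritic difference was 2.65 points in the 2 pairs, and 0 genes were called in all cycling cells, 23 in macrophages and 0 in the macrophage interaction. No block could be fitted for the lymphoid genes. Lineages could not be fitted at 10 or 20 cycling cells per mouse.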
